A study of Homo sapiens with 6 samples.

Results

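Small nucleolar RNA (snoRNA) host genes are long noncoding transcripts whose introns carry snoRNAs, and the SCARNA genes encode small Cajal body RNAs (scaRNAs). Here they were every gene record named SNHG or SCARNA followed by a number (for SCARNA also with a final letter), together with *GAS5*, *ZFAS1*, *EPB41L4A-AS1* and *DANCR*. This name rule found 57 of the 60671 gene rows, of which 32 were host transcripts and 25 were SCARNA records. *SCARNA4* has 2 records, so that the 57 records carry 56 symbols. The rule itself uses names and no measured value. The records are annotated as lncRNA, snoRNA or scaRNA, and *SCARNA9* is annotated as a lncRNA although it is named as a scaRNA.

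The cells were K562, a chronic myeloid leukemia line, here one clone that expresses Flag-NLS-M.CviPI-Lamin-B1, a GpC methyltransferase fused to Lamin B1, after addition of doxycycline. Libraries were made from 3 separate cultures given DMSO at 0.1% and from 3 given the EZH2 inhibitor GSK343 at 1 µM (EZH2i), each for 72 h, and all 6 received 1 µg/mL doxycycline for the last 24 h. EZH2 is the catalytic subunit of PRC2, which methylates histone H3 at lysine 27. The comparison asks which transcripts differed once this enzyme had been inhibited.

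Box C/D snoRNAs guide ribose methylation and box H/ACA snoRNAs guide pseudouridylation of ribosomal RNA, each within a protein particle that carries out the reaction. scaRNAs guide the same modifications of spliceosomal small nuclear RNAs in Cajal bodies, and a short motif named the CAB box holds H/ACA scaRNAs there through WRAP53. Human snoRNAs are mostly released from introns, so the spliced host transcript is a separate product. Many host transcripts begin with a C and a run of pyrimidines, as the messengers of ribosomal proteins do, and several, *GAS5* among them, are known substrates of nonsense-mediated decay.

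These libraries were primed from poly(A) and read near the 3′ end, with 6327544 to 8987768 reads on genes per library. Mature snoRNAs and scaRNAs have no poly(A) tail, so that a low count for such a record does not measure the mature small RNA. Whether reads on a SCARNA record came from the small RNA, from a longer transcript across it or from its unspliced containing gene was not tested. Levels are given in CPM, with each library scaled by its total and its TMM factor. They are not divided by length, so they were compared between treatments and not between genes. Of the 13 erythroid and K562 markers examined, 13 had reads, with summed levels of 1687 to 1725 CPM in DMSO and 1791 to 1815 CPM in EZH2i. Among markers of other blood cells, *MS4A1* and *ELANE* were at 0 reads. The 4 T cell markers summed to 58.5 to 70.8 CPM in DMSO and 82.6 to 100.1 CPM in EZH2i, with 1 of them at 10 reads or more in every library. The sums were 3.80 to 4.77 and 5.30 to 6.30 CPM for 4 B cell markers, 1.07 to 1.56 and 1.49 to 1.86 CPM for 4 monocyte and granulocyte markers and 240 to 276 and 236 to 255 CPM for 4 epithelial markers. The part of these markers in the results was not tested.

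Of the 57 records, 29 passed the filter on low counts, namely 25 of 32 host transcripts and 4 of 25 SCARNA records. Of these 29, 1 was higher (*SCARNA20*) and 2 were lower (*SCARNA9* and *SNHG7*) in EZH2i at an adjusted p under 0.05 in edgeR's quasi-likelihood test. *SCARNA20* passed the filter in 2 of 3 DMSO and all 3 EZH2i libraries, so the higher call is in part set by the filter. Over all 12364 genes tested, 4.26% were called, 3.34% as higher and 0.922% as lower. The EZH2i libraries lay entirely above the DMSO libraries for 5 of the 29 and entirely below for 5, and over all genes tested 24.5% did not overlap, 13.3% above and 11.1% below. No test was run on these shares. The plot of log2 fold changes shows every tested record with its interval.

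**Figure D1:**
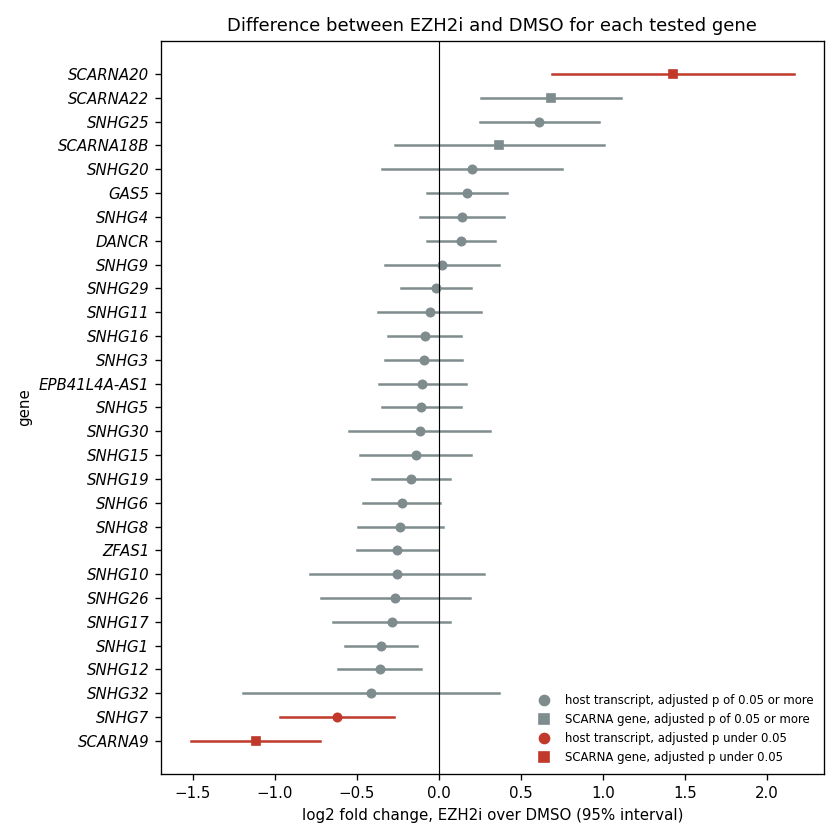
Log2 fold change of EZH2i over DMSO on the x axis, with its 95% interval from the edgeR fit, for the 29 tested records on the y axis. Circles are host transcripts, squares are SCARNA genes and red marks an adjusted p under 0.05; *SCARNA20* lies farthest right at 1.43 and *SCARNA9* farthest left at -1.12.

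The 28 records that were not tested held few reads. Among host transcripts, *SNHG14*, *SNHG27* and *SNHG28* had 0 reads in all 6 libraries, and *SNHG31* had the most with 38 reads over the 6. Among the untested SCARNA records, 10 of 21 had 0 reads and *SCARNA18* had the most with 55. No difference was tested for them in the main fit.

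The host transcripts held nearly all of the reads of the 57 records. Together they reached 7289 ± 340 CPM in the DMSO libraries and 7169 ± 428 CPM in the EZH2i libraries (SD, n = 3), a difference within the spread between libraries. The SCARNA records together reached 106 ± 5.46 CPM in DMSO and 120 ± 22.0 CPM in EZH2i (SD, n = 3). Of the 25 tested host transcripts, 19 had a log2 fold change below 0, with a median of -0.12. On leaving out 1 library this median ran from -0.20 to -0.086. Over all genes tested, 6186 of 12364 lay below 0 and the median was -0.0002. Of the 25, 1 was called, against 4.26% of all genes, and 5 had an unadjusted p under 0.05, against 2366 of 12364.

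**Figure D2:**
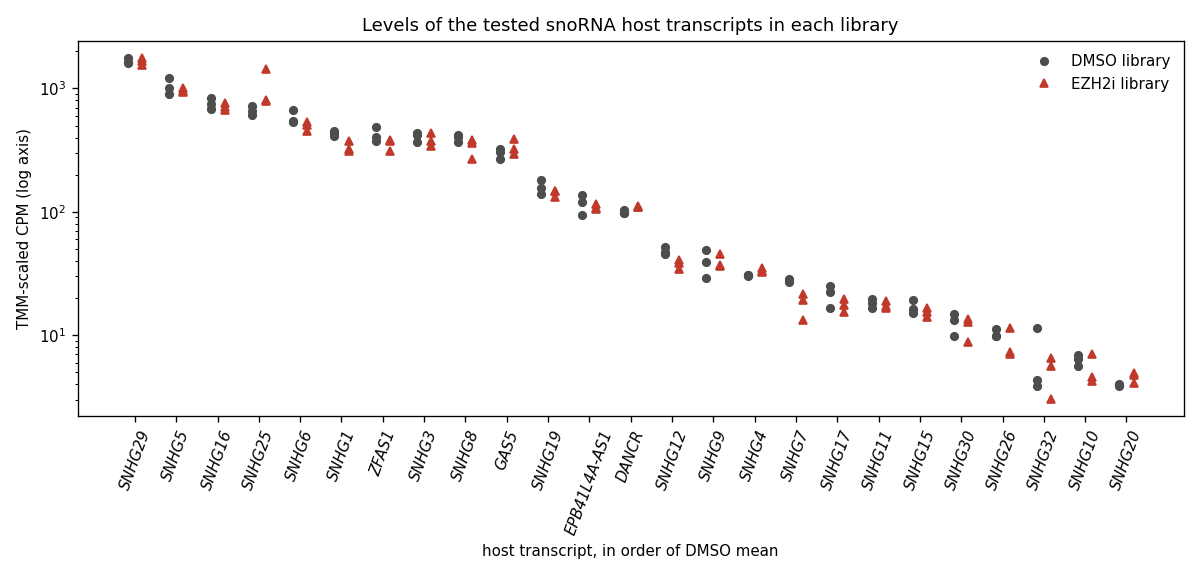
Level of each tested host transcript in TMM-scaled CPM on a log y axis, with 1 point per library (grey circles DMSO, red triangles EZH2i) and genes ordered by their DMSO mean on the x axis. The groups overlap for 17 of the 25 genes, against 9341 of all 12364 genes tested. *SNHG7*, *SNHG1*, *SNHG12* and *SNHG6* show every EZH2i library below DMSO. *SNHG25*, *SNHG20*, *SNHG4* and *DANCR* show every EZH2i library above, *SNHG25* with 1 library far above the others.

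*SNHG7* (ENSG00000233016, chr9:136721366-136728184, minus strand, GRCh38) was the host transcript called. It carries the H/ACA snoRNAs SNORA17A and SNORA17B in its introns. Its levels were 27.2, 28.6 and 27.7 CPM in DMSO replicates 1, 2 and 3 and 13.3, 19.3 and 21.8 CPM in EZH2i replicates 1, 2 and 3. The DMSO libraries lay close together, and all 3 EZH2i libraries were below them with a wider spread. The log2 fold change was -0.62 with an SE of 0.16, or 1.54-fold lower (edgeR adjusted p = 0.0409). The call was near the threshold and was lost on leaving out any 1 library other than EZH2i replicate 3, with adjusted p from 0.0223 to 0.145, while the fold change stayed between -0.77 and -0.44. Without EZH2i replicate 1, the lowest library, it was -0.44. An exon of *DIPK1B* overlaps *SNHG7* on the opposite strand.

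*SNHG25* (ENSG00000266402, chr17:64145937-64146476, plus strand), a short host transcript, had the highest fold change among host transcripts. It holds the box C/D snoRNA SNORD104 in an intron and the H/ACA snoRNA SNORA50C in an exon, where the assignment of reads was not tested. Its levels were 650.6, 608.4 and 714.4 CPM in DMSO and 1426, 792.5 and 800.8 CPM in EZH2i, replicates 1 to 3 in order. All 3 EZH2i libraries lay above DMSO, and replicate 1 stood far above the others. The log2 fold change was 0.61 with an SE of 0.17, and the adjusted p of 0.0519 in edgeR missed the threshold. Without EZH2i replicate 1 the log2 fold change was 0.28 (edgeR adjusted p = 0.101), so that the value rested largely on 1 library. The call was reached without EZH2i replicate 2 (adjusted p = 0.0186) and without EZH2i replicate 3 (0.0178).

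SNORD104 itself was the one snoRNA record inside a host gene that passed the filter. It had 60, 72 and 97 reads in DMSO and 62, 65 and 59 reads in EZH2i, and its log2 fold change was -0.21 (edgeR adjusted p = 0.605). In CPM its levels were 9.38, 8.55 and 11.01 in DMSO and 8.40, 8.20 and 8.45 in EZH2i, each EZH2i library below each DMSO library, while *SNHG25* lay above. The log2 ratio of *SNHG25* to SNORD104 averaged 6.10 ± 0.0685 over the DMSO libraries and 6.86 ± 0.478 over the EZH2i libraries (SD, n = 3), a difference of 0.76. This ratio and those of the 4 tested SCARNA genes to the genes around them were chosen after the values were seen and are given as descriptions. Two-sided exact permutation tests of the 5 ratios gave p = 0.1, the smallest that 3 libraries against 3 allow, for all but *SCARNA18B* (p = 0.2), or 0.125 and 0.2 after Benjamini-Hochberg adjustment, and nothing rests on them.

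The small RNA records inside the genes examined gave almost no reads apart from SNORD104. Of 146 such records, SNORD104 included, 93 lie in an intron of the host's canonical transcript, 137 had 0 reads in all 6 libraries and 9 had any. *SNHG14*, which had 0 reads itself, holds 84 of the 146.

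*SNHG1* (ENSG00000255717, chr11:62851978-62855953, minus strand) carries the box C/D snoRNAs SNORD22, SNORD25, SNORD26, SNORD27, SNORD28 and SNORD30. Its levels were 411.6, 448.1 and 434.6 CPM in DMSO and 378.2, 324.7 and 312.0 CPM in EZH2i. Every EZH2i library lay below every DMSO library, by a small margin for replicate 1. The log2 fold change was -0.35 with an SE of 0.10, which did not pass in edgeR (adjusted p = 0.0663) and did in DESeq2 (adjusted p = 0.0179). Without EZH2i replicate 1 the edgeR adjusted p was 0.00956.

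*SNHG12* (host of SNORA16A, SNORA44, SNORA61 and SNORD99) had 45.7, 51.5 and 47.7 CPM in DMSO and 40.6, 34.2 and 38.2 CPM in EZH2i. Its groups did not overlap either, and its log2 fold change of -0.36 missed the threshold (edgeR adjusted p = 0.101). *SNHG32* (host of SNORD48 and SNORD52) had the second lowest log2 fold change among the hosts, -0.41, but its levels were low and scattered, at 3.91, 11.5 and 4.31 CPM in DMSO and 6.50, 3.03 and 5.59 CPM in EZH2i. Its groups overlapped (edgeR adjusted p = 0.596), and without DMSO replicate 2 its log2 fold change was 0.28.

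The host transcripts with the most reads differed by less than the spread between libraries or did not pass the test. *SNHG29* (host of SNORD49A, SNORD49B and SNORD65) had 1679 ± 83.1 CPM in DMSO and 1661 ± 102 CPM in EZH2i (SD, n = 3), with a log2 fold change of -0.02 and a 95% interval from -0.23 to 0.20. *SNHG5* (host of SNORD50B) had 1041 ± 161 CPM and 966 ± 40.4 CPM, with a log2 fold change of -0.11 and an interval from -0.35 to 0.13. For *SNHG16* (host of SNORD1A, SNORD1B and SNORD1C) the values were 754 ± 76.8 CPM and 711 ± 50.3 CPM, with a log2 fold change of -0.09 and an interval from -0.31 to 0.14, and without DMSO replicate 3 it was -0.005. These intervals leave room for changes within their limits, which for *SNHG5* and *SNHG16* reach farther down than up. *SNHG6* (host of SNORD87) was below DMSO in every EZH2i library, at 581 ± 73.3 CPM and 497 ± 42.2 CPM, and did not pass (log2 fold change -0.22, edgeR adjusted p = 0.283, from -0.28 to -0.11 on leaving out 1 library).

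The 4 host genes without an SNHG name were not called. *GAS5* is the host of a series of box C/D snoRNAs, although no small RNA record was found nested in it here. It had 268, 320 and 305 CPM in DMSO and 386, 325 and 295 CPM in EZH2i, with a log2 fold change of 0.17 (edgeR adjusted p = 0.442). Its groups overlapped, and EZH2i replicate 1 was the highest library. On leaving out 1 library the log2 fold change ran from 0.060, without EZH2i replicate 1, to 0.26. *DANCR* (host of SNORA26) was slightly above DMSO in every EZH2i library, with 98.5, 98.5 and 103.6 CPM against 110.3, 111.3 and 108.6 CPM, and a log2 fold change of 0.13 (edgeR adjusted p = 0.486). *ZFAS1* (host of SNORD12, SNORD12B and SNORD12C) had a log2 fold change of -0.25 (edgeR adjusted p = 0.255) and *EPB41L4A-AS1* (host of SNORA13) one of -0.10 (0.722), both with overlapping groups. The value of *ZFAS1* ran from -0.33 to -0.13 on leaving out 1 library, nearest to 0 without DMSO replicate 2. That of *EPB41L4A-AS1* turned to 0.029 without the same library. *SNHG20*, which holds *SCARNA16* in an intron, had the second highest log2 fold change of the hosts, 0.20, from 196 reads over the 6 libraries (edgeR adjusted p = 0.732). The other 11 tested hosts were not called, with log2 fold changes from -0.29 (*SNHG17*) to 0.14 (*SNHG4*).

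Leaving aside nested small RNA records, exons of 7 of the 25 tested host transcripts overlap another gene on the same strand. Exons of 14 overlap a gene on the opposite strand. Some nested records also lie in host exons on the same strand, as SNORA50C does in *SNHG25* and SNORA9 in *SNHG15*. How reads on such stretches were assigned depends on the counting mode and strand setting, which are not given in the sources used here. Overlaps and nested records are placed by GENCODE version 44, a later annotation than the Ensembl release that the study names for its RNA-seq, so that positions may differ.

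The start of the host transcripts was examined because a C followed by pyrimidines (a terminal oligopyrimidine, or TOP, start) is the feature for which this gene class is known. RefSeq start windows (GRCh38.p14) were matched for 28 of the 32 host transcripts. A start was counted as TOP-like when its first base was C and at least the next 3 were C or T, on the transcribed strand. Of 21 tested hosts with a window, 8 met this, or 38.1%, against 6.94% of 9307 tested genes with a window and 5.45% of all 35116 windows. The 8 are shown from 15 bases before the start to 25 bases from it on, with the pyrimidine run in capitals, because *SNHG7* is among them:
SNHG7: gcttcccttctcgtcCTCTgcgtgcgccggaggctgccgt
SNHG12: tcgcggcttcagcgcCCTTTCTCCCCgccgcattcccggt
SNHG32: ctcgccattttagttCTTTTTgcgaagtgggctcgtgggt
SNHG26: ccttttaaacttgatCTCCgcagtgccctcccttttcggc
ZFAS1: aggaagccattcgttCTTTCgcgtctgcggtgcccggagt
SNHG19: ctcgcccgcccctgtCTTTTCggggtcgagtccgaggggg
SNHG5: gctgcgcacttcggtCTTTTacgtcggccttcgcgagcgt
SNHG4: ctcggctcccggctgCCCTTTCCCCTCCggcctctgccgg

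The windows of *SNHG7* (chr9:136728160-136728199), *ZFAS1* (chr20:49278627-49278666) and *SNHG5* (chr6:85678709-85678748) show runs of 4, 5 and 5 pyrimidines. The runs of *SNHG12* (chr1:28581849-28581888) and *SNHG4* (chr5:139274086-139274125) are longer, at 11 and 13 bases. The remaining windows are those of *SNHG32* (chr6:31834901-31834940), *SNHG26* (chr7:22854225-22854264) and *SNHG19* (chr16:2155334-2155373). *SNHG1* has a C with 3 pyrimidines in all at its RefSeq start and fell short of the definition.

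The 8 TOP-like hosts had a median log2 fold change of -0.26, and 7 of the 8 lay below 0. The other 13 tested hosts with a window had a median of -0.09, and 10 of the 13 lay below 0. Over all tested genes with a window, the medians were -0.06 for TOP-like and -0.002 for other starts, and 58.2% of the TOP-like genes lay below 0. *SNHG7* was the one of the 8 that was called. The highest of the 8 was *SNHG4* (host of SNORA74A and SNORA74D) at 0.14, and it shares exonic bases with *MATR3* on its strand. The RefSeq and GENCODE starts differ for most hosts, *SNHG5* and *ZFAS1* among them, so which start these cells used is not known from these data. The definition and the split were chosen with the fold changes at hand, and no test was run on them.

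**Figure D3:**
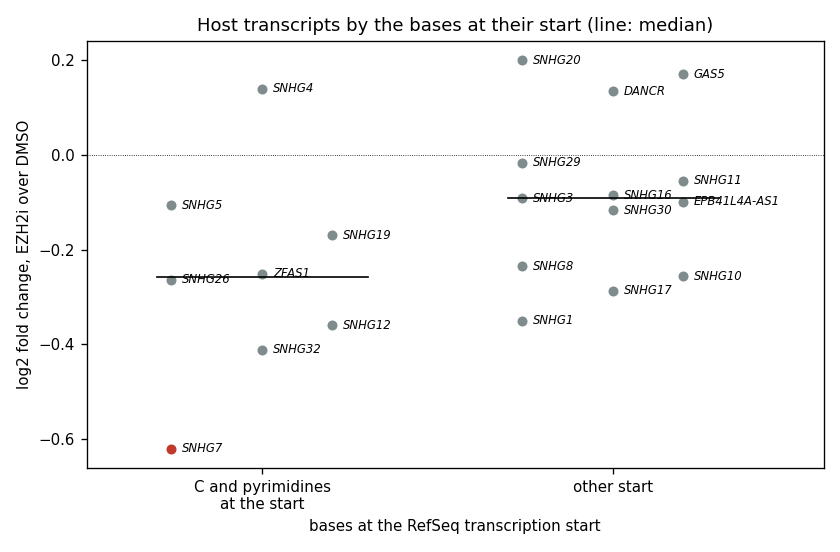
Log2 fold change of EZH2i over DMSO on the y axis for the 21 tested hosts whose RefSeq start window was used. They are split on the x axis by whether the start is a C followed by at least 3 pyrimidines, with the median of each group as a line. The medians are -0.26 and -0.09, the 2 groups overlap, and *SNHG7* (red, adjusted p under 0.05) is the lowest point at -0.62.

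Among the 4 tested SCARNA genes, 1 was called as lower and 1 as higher, against 0.922% and 3.34% of all genes tested. Each of the 25 records lies within another annotated gene on its strand, and the 4 that were tested each lie in an intron of the canonical transcript of a protein-coding gene. *SCARNA9* was lower, *SCARNA20* was higher, and *SCARNA22* and *SCARNA18B* did not pass. None of the 4 containing genes was called in the same edgeR fit.

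*SCARNA9* (ENSG00000254911, chr11:93721513-93721865, plus strand) lies in *CEP295*, which encodes a centriole protein. It guides ribose methylation, and its first 300 of 353 bases (chr11:93721513-93721812) are shown with the letters TGATGA and CTGA in capitals, the sequences named for box C and box D:
SCARNA9: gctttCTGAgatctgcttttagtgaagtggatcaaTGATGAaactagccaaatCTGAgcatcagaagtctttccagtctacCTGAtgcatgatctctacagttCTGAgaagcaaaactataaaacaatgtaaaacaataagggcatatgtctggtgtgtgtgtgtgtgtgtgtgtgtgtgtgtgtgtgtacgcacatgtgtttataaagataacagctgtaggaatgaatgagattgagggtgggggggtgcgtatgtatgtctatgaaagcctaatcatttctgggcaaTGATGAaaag

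The stretch holds TGATGA 2 times and CTGA 4 times, searched on the RNA strand only. Within it, all 4 CTGA and the first TGATGA precede a repeat of GT, and the second TGATGA follows it. The whole record of 353 bases holds CTGA 6 times. A match to these letters does not show a working box. Of its 319 different words of 30 bases, 26 also occur in a GENCODE transcript of a gene elsewhere.

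*SCARNA9* had 36.4, 58.5 and 37.7 CPM in DMSO and 22.6, 22.9 and 15.6 CPM in EZH2i, from 233, 493 and 332 reads against 167, 182 and 109. All 3 EZH2i libraries lay below all 3 DMSO libraries, and DMSO replicate 2 was the highest. The log2 fold change was -1.12 with an SE of 0.19, or 2.17-fold lower (edgeR adjusted p = 0.00233). It was called in every one of the 12 other settings, and on leaving out 1 library the log2 fold change ran from -1.24 to -0.86 with adjusted p from 0.00125 to 0.0207.

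*CEP295* around it had 74.0, 73.8 and 79.2 CPM in DMSO and 73.7, 69.7 and 65.7 CPM in EZH2i, with a log2 fold change of -0.12 (edgeR adjusted p = 0.587). Its EZH2i libraries were also below DMSO, by far less than those of *SCARNA9*. The log2 ratio of *SCARNA9* to *CEP295* averaged -0.81 ± 0.41 over the DMSO libraries and -1.79 ± 0.25 over the EZH2i libraries (SD, n = 3), lower by 0.98. An unnamed snoRNA record lies within *SCARNA9* on the same strand and had 0 reads in all 6 libraries. Exons of a further unnamed gene also overlap *SCARNA9* on its strand, so reads there could belong to either record.

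The other tested scaRNAs are of the size of H/ACA RNAs. They are shown whole, with the ACA 3 bases from the 3′ end and the letters TGAG of the CAB box in capitals, because these motifs mark an H/ACA scaRNA:
SCARNA20: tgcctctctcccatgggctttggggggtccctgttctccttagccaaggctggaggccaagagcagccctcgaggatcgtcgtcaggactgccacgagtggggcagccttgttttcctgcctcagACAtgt
SCARNA22: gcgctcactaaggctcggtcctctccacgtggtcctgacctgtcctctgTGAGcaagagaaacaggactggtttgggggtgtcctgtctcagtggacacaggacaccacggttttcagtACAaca
SCARNA18B: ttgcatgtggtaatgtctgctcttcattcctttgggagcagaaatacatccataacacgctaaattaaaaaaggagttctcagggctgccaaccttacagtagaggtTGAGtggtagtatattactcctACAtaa

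The ACA stands at the same distance from the end in all 3, and TGAG occurs in *SCARNA22* and *SCARNA18B* and not in the 131 bases of *SCARNA20*. Both letter runs were searched on the RNA strand. Of 405 snoRNA or scaRNA records of 115 to 145 bases, 60.2% had ACA at this place, 42.2% had TGAG anywhere and 24.2% had both. For none of the 3 did a 30-base word occur in a transcript of a gene elsewhere. The 20 bases after the annotated 3′ end held 8 A in *SCARNA20*, 8 in *SCARNA22* and 14 in *SCARNA18B*, with a median of 7 over the 405 records, and priming at such bases was not tested.

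*SCARNA20* (ENSG00000252577, chr17:60231516-60231646, minus strand) lies in *USP32*, which encodes a ubiquitin protease. It had 7, 24 and 15 reads in DMSO and 50, 35 and 31 in EZH2i, or 1.09, 2.85 and 1.70 CPM against 6.77, 4.41 and 4.44 CPM. Every EZH2i library lay above every DMSO library. This gave a log2 fold change of 1.43 with an SE of 0.35, or 2.69-fold higher (edgeR adjusted p = 0.0290).

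The counts of *SCARNA20* are low, and it would not have been tested on its DMSO libraries alone, since 2 of the 3 reached the filter's 1.317 CPM. The call was lost without DMSO replicate 1 (adjusted p = 0.120), DMSO replicate 3 (0.107) or EZH2i replicate 1 (0.0906), and the log2 fold change stayed between 1.19 and 1.85. *USP32* had 22.7 ± 3.50 CPM in DMSO and 22.7 ± 3.38 CPM in EZH2i (SD, n = 3), with a log2 fold change of -0.003 and a 95% interval from -0.34 to 0.33. The log2 ratio of *SCARNA20* to *USP32* was higher by 1.55 in EZH2i.

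*SCARNA22* (ENSG00000249784, chr4:1974636-1974760, plus strand) lies in *NSD2*, which encodes a histone H3 lysine 36 methyltransferase. It had 60.1, 34.4 and 66.2 CPM in DMSO and 61.8, 106.7 and 89.2 CPM in EZH2i, and the groups overlapped through EZH2i replicate 1. The log2 fold change was 0.68 with an SE of 0.20 and missed the threshold in edgeR (adjusted p = 0.0663). It depended on single libraries, at 0.45 without DMSO replicate 2 (adjusted p = 0.264) and 0.88 without EZH2i replicate 1 (adjusted p = 0.00485). *NSD2* had 124 ± 7.61 CPM in DMSO and 107 ± 12.0 CPM in EZH2i (SD, n = 3), with a log2 fold change of -0.22 (edgeR adjusted p = 0.291). The log2 ratio of *SCARNA22* to *NSD2* was higher by 0.92 in EZH2i. Exons of other *NSD2* transcripts overlap *SCARNA22* on its strand, so reads there could belong to either record.

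*SCARNA18B* (ENSG00000238754, chr1:193057281-193057415, minus strand) lies in *UCHL5*, which encodes a proteasome-bound deubiquitinase. It had 2.03, 3.56 and 3.40 CPM in DMSO and 3.52, 4.29 and 4.01 CPM in EZH2i from 161 reads in all, and the groups overlapped. Its log2 fold change was 0.37 with a 95% interval from -0.27 to 1.01 (edgeR adjusted p = 0.548), so that neither no change nor a doubling of the level was outside it. On leaving out 1 library it ran from 0.18, without DMSO replicate 1, to 0.50. *UCHL5* had a log2 fold change of -0.15 (edgeR adjusted p = 0.457), and the log2 ratio of *SCARNA18B* to it was higher by 0.59 in EZH2i.

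**Figure D4:**
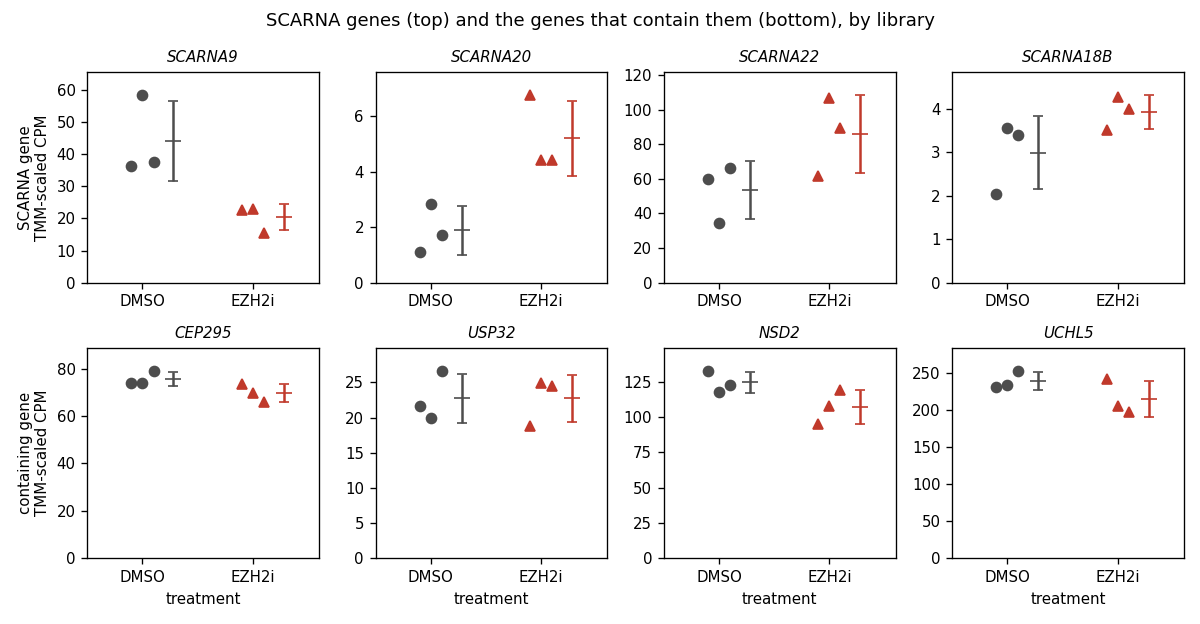
Levels in TMM-scaled CPM on the y axes, all starting at 0, of the 4 tested SCARNA genes (top) and of the protein-coding gene around each (bottom), with 1 point per library (grey circles DMSO, red triangles EZH2i) and the mean and SD beside them. *SCARNA9* falls from a mean of 44.2 to 20.4 CPM and *SCARNA20* rises from 1.88 to 5.21 CPM, and in the bottom panels the means of the groups lie much closer to each other.

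Other snoRNA and scaRNA records were set beside these. Of 967 further records of these biotypes, 11 were tested, 1 was called as higher and 8 of the 11 had a log2 fold change above 0, with a median of 0.47. Over all genes tested, 3.34% were called as higher and 6178 of 12364 lay above 0. SNORA80A, SNORA79 and 1 unnamed record among the 11 passed the filter only with the help of their EZH2i libraries, so this count and median are in part set by the filter. The one called, chosen after its values were seen, was SNORD13, which guides acetylation of ribosomal RNA, with 67.2, 53.3 and 57.3 CPM in DMSO and 110.1, 92.9 and 66.7 CPM in EZH2i. Its log2 fold change was 0.61 (edgeR adjusted p = 0.0314), and its groups overlapped.

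The genes for proteins that act on these RNAs were described as lists, for which the shares over all genes tested are the 4.26% called and the 2366 of 12364 with an unadjusted p under 0.05. Of 19 genes for the core proteins and assembly factors of snoRNA particles, 0 were called as higher and 1 as lower in edgeR, 14 lay below 0 and the median was -0.08. The one called was *TCOF1*, which encodes the nucleolar protein treacle, with 119.8, 143.8 and 144.0 CPM in DMSO and 107.7, 92.6 and 102.1 CPM in EZH2i and a log2 fold change of -0.43 (edgeR adjusted p = 0.0339). *FBL*, the box C/D methyltransferase, had 755 ± 58.1 CPM and 846 ± 81.0 CPM (SD, n = 3, log2 fold change 0.17, edgeR adjusted p = 0.414), and *DKC1*, the H/ACA pseudouridine synthase, had 565 ± 42.9 CPM and 540 ± 49.0 CPM (-0.07, 0.787). The highest of the list was *SHQ1*, an H/ACA assembly factor, at 0.29 (edgeR adjusted p = 0.433).

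Of 19 tested genes of Cajal bodies and spliceosomal particle assembly, 0 were called in edgeR and 1 had an unadjusted p under 0.05, with a median log2 fold change of -0.15. *COIL*, the scaffold of Cajal bodies, had -0.15 (adjusted p = 0.439) and *WRAP53*, which binds the CAB box, had -0.19 (0.691). The lowest and highest were *SMN1*, for the survival motor neuron protein, at -0.42 (adjusted p = 0.519) and *USPL1*, for a SUMO protease of Cajal bodies, at 0.21 (0.744). *SMN1* has a near-identical copy, *SMN2*, and reads shared by them are uncertain.

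Of 16 genes of nonsense-mediated decay, 0 were called in edgeR and 4 had an unadjusted p under 0.05, with a median of -0.10. The median ran from -0.13 to -0.027 on leaving out 1 library. Log2 fold changes of 9 of the genes lay below 0 and those of 7 above. They ran from -0.35 for *EIF4A3*, a helicase of the exon junction complex (adjusted p = 0.291), to 0.65 for *SMG8*, a regulator of the SMG1 kinase (0.343). *SMG8* passed the filter in 2 of 3 DMSO and all 3 EZH2i libraries, and with at least 10 counts in every library, which leaves it out, the median was -0.13. *UPF1*, the central helicase of the pathway, was at 0.05 (0.837).

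Of 14 tested TOP messengers that do not encode ribosomal proteins, 0 were called as higher and 1 as lower in edgeR, 12 lay below 0 and the median was -0.11. *EEF1B2*, a translation elongation factor subunit, was the one called, with 76.3, 115.0 and 79.4 CPM in DMSO and 64.9, 59.5 and 60.0 CPM in EZH2i and a log2 fold change of -0.56 (edgeR adjusted p = 0.0320). *EEF1A1* was highest at 0.18 (adjusted p = 0.613), from 16.3 ± 2.79 CPM in DMSO and 18.3 ± 2.26 CPM in EZH2i (SD, n = 3). This gene has many near-identical copies, and reads shared with them are uncertain.

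Of 19 genes of RNA polymerase I and III transcription and snRNA processing, 0 were called in edgeR and 3 had an unadjusted p under 0.05, with a median of -0.10. They ran from -0.48 for *SNAPC4*, of the snRNA activating complex (adjusted p = 0.232), to 0.32 for *INTS3*, an Integrator subunit (0.499).

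**Figure D5:**
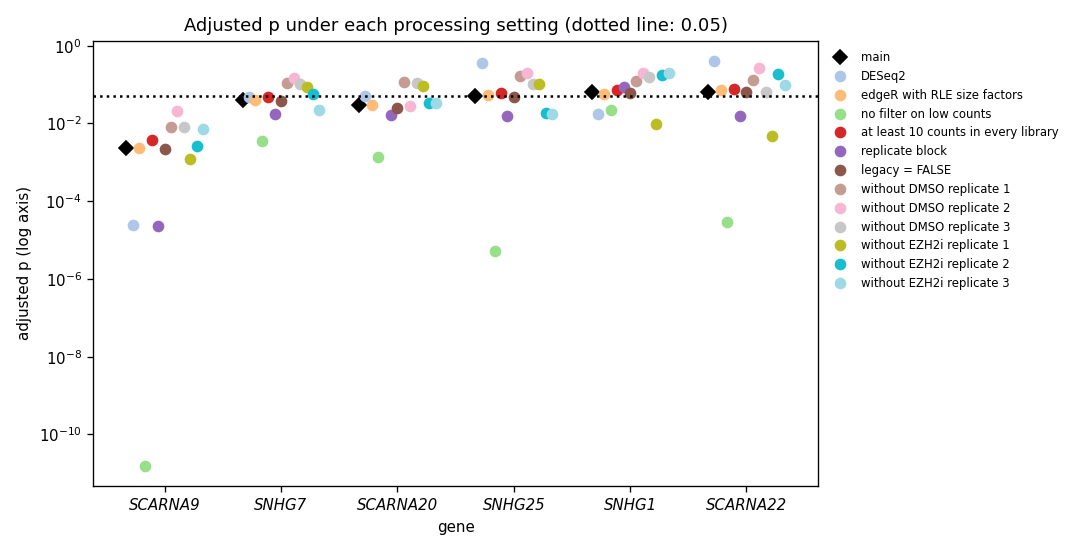
Adjusted p on a log y axis for 6 genes on the x axis under the main fit (black diamond) and each other setting (coloured circles), with 0.05 as a dotted line. *SCARNA9* lies below the line in every setting, and the other 5 genes lie on both sides of it.

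The plot of adjusted p by setting sets the calls side by side. Beside *SCARNA9*, which was called throughout, *SCARNA20* was called in 8 of 11 other settings and *SNHG7* in 7 of 12. *SNHG25* was called in 5, *SNHG1* in 3 and *SCARNA22* in 3 of 12 settings, and none of these was called in the main fit.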

How the data were processed

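Sequencing of 3′ messenger RNA ends (QuantSeq FWD, single-end reads) was performed on the 6 libraries. The authors aligned the reads to hg38 and counted them per Ensembl gene, and per the labels STAR 2.6.0c and HTSeq 0.11.2 were used; strand setting and overlap mode are not given in the sources used here. The deposited values are raw counts per library, without normalization or pooling. A deposited table of the authors' own comparison (fold changes and p-values) was not used.

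Rows that name no gene were left out, and genes held 63.6 to 67.9% of the listed reads. All 6 libraries were fitted with edgeR 4.0.16 in R 4.3.3: TMM, filterByExpr with a minimum count of 10 (1.317 CPM in at least 3 libraries), and the two-sided quasi-likelihood test (glmQLFit, glmQLFTest), adjusted by Benjamini-Hochberg over 12364 genes at a threshold of 0.05. DESeq2 1.42.0 was an alternative. Annotation was GENCODE version 44, which matched 60401 identifiers, and start windows came from RefSeq. On simulated data for this comparison over 12344 genes, edgeR recovered 28.3% of changes of 0.5, 92.6% of 1 and 100% of 2 on the log2 scale. The simulation gave every gene the common dispersion of 0.01287 and drew changed genes from all tested genes. Recovery for records with few reads or a wider spread may be lower.

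The genes and lists were chosen with earlier results of these data known. The named genes are called records, the 4 without an SNHG name, the 5 hosts with the most reads, the 3 highest and 3 lowest hosts, tested SCARNA genes with their containing genes, records called under an alternative, and the called and extreme genes of each list; *FBL*, *DKC1*, *COIL*, *WRAP53*, *UPF1*, *SNHG4* and SNORD104 were added for their role after values were seen. Within each group, replicates differed by more than sampling noise (chi-square per degree of freedom 4.25 to 11.5). The p-values measure the spread between separate cultures of 1 clone.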

Additional observations from a re-analysis of the deposited data

Results flagged for a closer look

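In EZH2i replicate 3, 12.71% of the listed reads fell on no annotated gene, above the highest DMSO library, at 8.425%. The other EZH2i libraries were at 8.131% and 8.506%. Without this library *SCARNA9* had a log2 fold change of -0.96 and *SNHG7* of -0.77, both called in edgeR; the part of these reads in the results was not tested.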

How the results depend on the processing

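*SCARNA9* was called in all 12 other settings, and none of *SCARNA9*, *SCARNA20* and *SNHG7* changed direction in the settings run. In place of 527 genes and 3 of the records examined, the fit without a filter called 928 and 6, a threshold of 0.01 called 148 and 1, and a threshold of 0.1 called 950 and 6. Leaving out 1 library gave 209 to 536 genes and 1 to 4 of the records, with 213, 209 and 240 genes without DMSO replicates 1, 2 and 3, and 1 record (*SCARNA9*) without DMSO replicate 1 or 3. DESeq2 called 435 genes, 292 higher and 143 lower, against 413 and 114 in edgeR. Deviations of same-numbered libraries were close to uncorrelated (correlations -0.057, -0.018 and -0.021), and the labels do not say whether replicate numbers pair the cultures. With a replicate block, 599 genes and 5 of the records were called, *SCARNA22* and *SNHG25* being added. Median log2 fold changes on leaving out 1 library ran from -0.20 to -0.086 for host transcripts, 0.40 to 0.77 for SCARNA genes (4 or 5 tested, *SCARNA20* among them), -0.14 to -0.073 for snoRNA particle proteins, -0.16 to -0.091 for Cajal body genes, -0.13 to -0.027 for nonsense-mediated decay, -0.15 to -0.073 for TOP messengers and -0.17 to -0.046 for polymerase I and III genes. In the main fit *SCARNA20* passed the filter only with the help of its EZH2i libraries, so the medians of SCARNA genes may be set in part by the filter. With at least 10 counts in every library the decay list's median was -0.13, *SCARNA20* could not be tested and the median of the other 3 SCARNA genes was 0.37. Direction reversed, without a call, without DMSO replicate 2 for *EPB41L4A-AS1* (0.029, range on leaving out 1 library -0.23 to 0.029), *SNHG32* (0.28, -0.66 to 0.28) and *SNHG5* (0.023, -0.20 to 0.023), and for *SNHG29* without DMSO replicate 3 (0.025) or EZH2i replicate 3 (0.029, range -0.057 to 0.029). The cause of these shifts was not tested. Of the 25 SCARNA records, 21 were below the filter, 10 of them at 0 reads, and whether depth or poly(A) priming set this was not tested.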
